A study of Mus musculus with 61 samples.

Results

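The transcriptome of wild-type mouse stembryos was compared between 72 h and 84 h after aggregation, the first 12 h after the end of a 24-h pulse of the Wnt agonist Chiron. The comparison used 4 of the 61 RNA-seq libraries of the series, 2 at 72 h and 2 at 84 h, all from the wild-type time course. Genes were kept when their mean FPKM (fragments per kilobase of transcript and mega mapped fragments) was at least 1 at either stage, which held for 12098 of the 55052 genes of the table. Of these, 11169 reached this level at both stages, 538 at 84 h alone and 391 at 72 h alone, and a gene that passed at 1 stage alone had by construction to be lower at the other.

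Stembryos, also called gastruloids, are aggregates of embryonic stem cells that break symmetry and grow an elongating posterior end. Both groups carried no engineered allele and came from the same wild-type line (EmbryoMax 129/SVEV). Both had received the same pulse of Chiron (CHIR99021, an inhibitor of the kinase GSK-3) between 48 h and 72 h. The 72 h group was taken at the end of the pulse and the 84 h group 12 h later. By the volumes in the methods the medium was replaced in part, so some agonist may have stayed in the wells after 72 h. Many stembryos were pooled in each library and were collected without selection, and no untreated aggregates of these stages entered the comparison. Time since the pulse, time in culture and the change of medium therefore cannot be told apart. The study's methods state that its quantified experiments had biological replicates, while the labels do not say whether these replicates were separate cultures. The p-values rest on a variance shared over all 61 libraries, so they measure the spread between replicate libraries of the whole series, part of which may be technical, and with the 4 libraries alone in the fit the calls fell to 482 higher and 198 lower.

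In the embryo, Wnt signalling induces the primitive streak, where epiblast cells lose their epithelial form and become mesoderm or endoderm. The posterior epiblast beside the streak keeps progenitors of spinal cord and paraxial mesoderm, marked by Cdx factors, while cells that leave it form the presomitic mesoderm, in which Notch and Wnt targets oscillate as the segmentation clock. Hox genes are switched on in the same tissue in the order of their positions along each cluster.

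Sequencing depth, inferred from the values, ranged from 17.8 to 24 mega fragments, at which 3 fragments correspond to 0.0681 to 0.0920 FPKM for a transcript of 2000 bases. This limit covers counting error only. Mitochondrial genes made up 2.08 and 2.74% of the summed FPKM at 72 h and 1.45 and 1.65% at 84 h. Genes whose value is exactly 0 are described as listed at 0, because cufflinks can assign no fragment to a gene that shares its span with another, and no fold is given for them.

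Changes were fitted with limma on log2(FPKM + 0.1) and called at a Benjamini-Hochberg adjusted p under 0.05. At 84 h, 1674 genes (13.8% of those tested) were higher and 1087 (8.98%) were lower. These shares over all genes are to be set beside the counts of every gene list below. Changes of at least 1 on the log2 scale were more numerous among the rises, with 582 genes against 198. The median log2 change was 0.72 among the genes called higher, -0.48 among those called lower and 0.00393 over all genes tested. Of the called genes, 2738 of 2761 moved the same way in both replicate numbers, which a call on these same libraries largely fixes. Over all genes tested, the changes of replicate 1 and of replicate 2 correlated at 0.424. Both 84 h libraries were above both 72 h libraries in 30.0% of the genes tested and below both in 29.8%, so that separation of the libraries alone was common. Among 288 long noncoding genes tested, 45 were higher and 19 were lower.

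**Figure D1:**
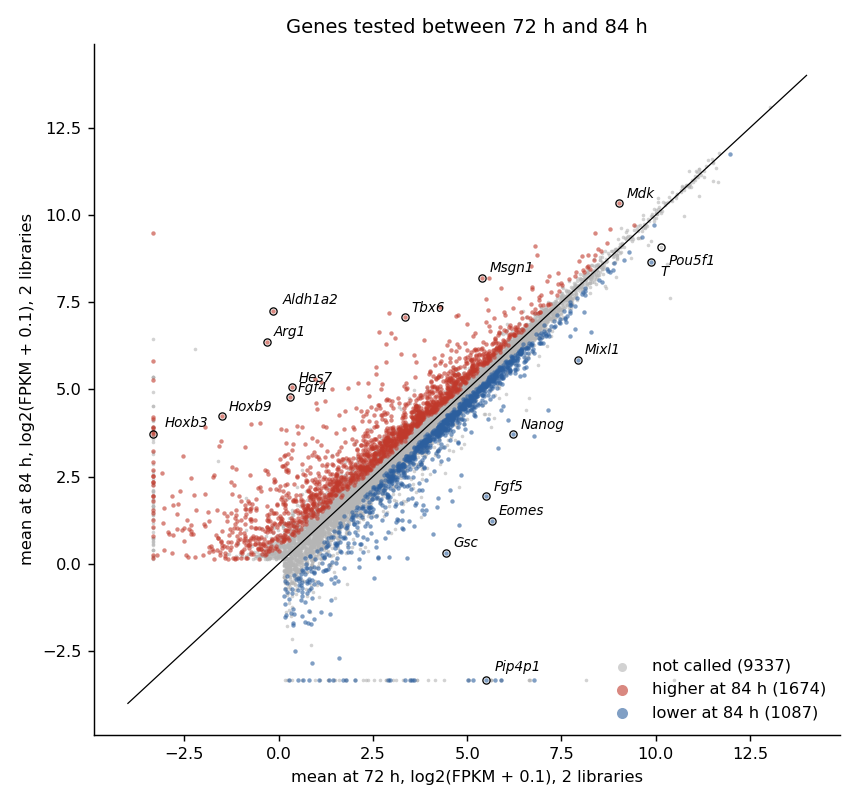
Mean expression of the 12098 genes tested at 72 h (x axis) and 84 h (y axis), each as log2(FPKM + 0.1) of the mean of 2 libraries. Red points are the 1674 genes called higher at 84 h, blue points the 1087 called lower and grey points the 9337 not called; genes listed at 0 in both libraries of a stage lie on the straight edges.

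The size of the change was compared with the later 12-h steps of the time course. The median absolute log2 change was 0.223 from 72 h to 84 h, and 8.79% of the genes changed by more than 1. From 84 h to 96 h, which shares the 84 h libraries, these values were 0.242 and 13.1%, and in the later 12-h steps, up to 144 h, the median lay between 0.149 and 0.179. The median absolute difference between replicates was 0.167 at 72 h and 0.128 at 84 h.

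The replicates at 72 h differed in the primitive streak genes, the Hox genes and some other lists. Over all genes tested, 234 were higher by more than 1 (log2) in 72 h replicate 1 and 260 in 72 h replicate 2. Among 18 primitive streak genes, 12 were higher by that margin in replicate 1 and 0 in replicate 2. Among 19 Hox genes tested, 8 were higher by that margin in replicate 2 and 0 in replicate 1. At 84 h, 0 genes of the streak and Hox lists differed between replicates by more than 1. At 72 h replicate 1 was also higher by that margin in 6 of 10 endoderm markers, 5 of 18 presomitic and 4 of 12 Nodal pathway genes. It was so in 5 of 17 FGF and ERK genes, and in these 4 lists replicate 2 was so in 0. Of 18 posterior epiblast genes, 7 were higher by that margin in replicate 2 and 2 in replicate 1. The results on the streak and Hox genes are therefore given below also without one or the other 72 h library.

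**Figure D2:**
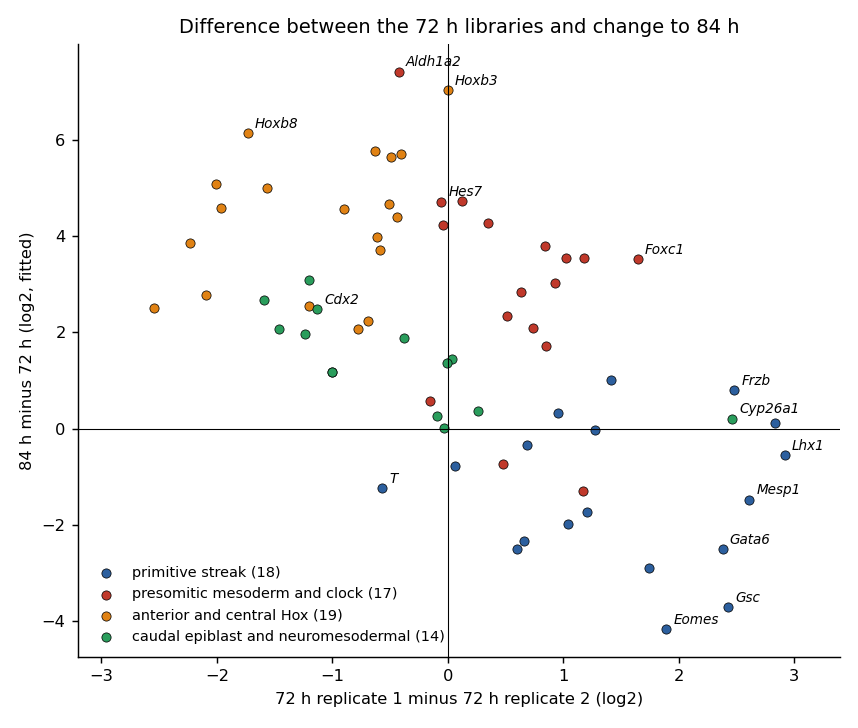
Difference between the 72 h libraries (replicate 1 minus replicate 2, log2, x axis) and the fitted change from 72 h to 84 h (log2, y axis) for the tested members of 4 gene lists, each gene shown once; both axes use the 72 h values. Primitive streak genes lie mostly at the lower right and Hox genes at the upper left, while Aldh1a2, Hes7 and Hoxb3 changed by more than 4 with nearly equal 72 h libraries.

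Most presomitic mesoderm genes tested rose. Of 20 genes in the list, 18 were tested, 14 were higher, 2 were lower (Mesp1 and Hes1) and the median log2 change was 3.27, beside 0.00393 over all genes. 4 of the 18 (Aldh1a2, Foxc1, Foxc2 and Meox1) reached 1 FPKM at 84 h alone, so these 4 could not have been lower. With any 1 of the 4 libraries left out, the smallest log2 change among the 14 was 1.285 (Dll3, without 72 h replicate 2). The filter on level stayed as set on all 4 libraries.

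Aldh1a2, which encodes the enzyme that makes retinoic acid in the paraxial mesoderm, showed one of the largest changes. It stands on chromosome 9 (mm10, 71215789 to 71296243, plus strand) and was at 0.672 and 0.938 FPKM at 72 h and at 152 and 152 FPKM at 84 h. The 2 stages were far apart, by 189-fold in the means (log2 change 7.41 ± 0.39 SE, limma adjusted p = 5.5e-17).

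Tbx6 encodes the T-box factor that commits cells to paraxial mesoderm (chromosome 7, 126781483 to 126785560, plus strand). It measured 12.9 and 7.14 FPKM at 72 h and 129 and 139 FPKM at 84 h, a 13.3-fold difference (log2 change 3.79 ± 0.34 SE, limma adjusted p = 8.79e-11). Msgn1 encodes mesogenin, a factor that drives presomitic differentiation (chromosome 12, 11208360 to 11208972, minus strand). It was already at 51.3 and 33.0 FPKM at 72 h and reached 277 and 311 FPKM at 84 h, 6.98-fold higher (log2 change 2.83 ± 0.51 SE, limma adjusted p = 6.52e-05). Both genes were separated between stages in every library, and Msgn1 had the higher level at each stage.

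The clock and Notch members rose as well. Hes7, the oscillating repressor of the clock (chromosome 11, 69120404 to 69124055, plus strand), went from 1.15 and 1.20 to 34.2 and 32.3 FPKM, 28.4-fold. Dll1, the Notch ligand of this tissue, went from 9.51 and 4.62 to 77.9 and 78.3 FPKM, 11.1-fold. Lfng, the glycosyltransferase that modifies Notch, went from 2.68 and 1.13 to 22.3 and 20.9 FPKM, 11.3-fold. The receptor Notch1 and the feedback gene Nrarp changed less, by 5.02-fold and 4.17-fold. The limma adjusted p of these 5 genes ran from 2e-15 (Dll1) to 9.71e-05 (Nrarp).

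Not every Hes gene moved the same way. Hes1, another Notch target, was at 64.5 and 28.6 FPKM at 72 h and at 15.5 and 19.5 FPKM at 84 h, lower by 2.66-fold (limma adjusted p = 1.05e-06). Its log2 change was -0.72 without 72 h replicate 1 and -1.88 without 72 h replicate 2. Mesp1, a factor of nascent mesoderm, was at 16.4 and 2.6 FPKM at 72 h and at 2.28 in both libraries at 84 h. Its call (limma adjusted p = 0.0465) was lost without 72 h replicate 1 (log2 change -0.18, adjusted p = 0.888) and without either 84 h library (adjusted p = 0.153 and 0.14).

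Genes of later presomitic and somite stages were low but detected at 84 h. Foxc2 went from 0.0183 and 0.0220 to 2.10 and 2.19 FPKM and Meox1, a factor of early somites, from 0.0684 and 0.0545 to 4.25 and 4.13 FPKM. At 96 h the same genes were at 42.3 and 79.1 and at 86.5 and 186 FPKM. Tcf15 was at 1.17 and 1.32 FPKM at 72 h and at 1.24 and 2.90 FPKM at 84 h and was not called. Mesp2 and Ripply2, which mark the forming somite boundary, did not reach 1 FPKM on average at either stage, with at most 1.27 FPKM in a single library. At 96 h Mesp2 was at 19.9 and 22.2 FPKM.

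Cited1, a transcriptional coregulator, and Rspo3, a secreted enhancer of Wnt signalling, completed the strong rises. Cited1 was at 8.36 and 6.54 FPKM at 72 h and at 152 and 138 FPKM at 84 h, 19.5-fold higher. Rspo3 was at 9.27 and 4.81 FPKM and then at 57.1 and 53 FPKM, 7.82-fold higher. In each of these genes the 84 h libraries differed from each other by less than they differed from either 72 h library.

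**Figure D3:**
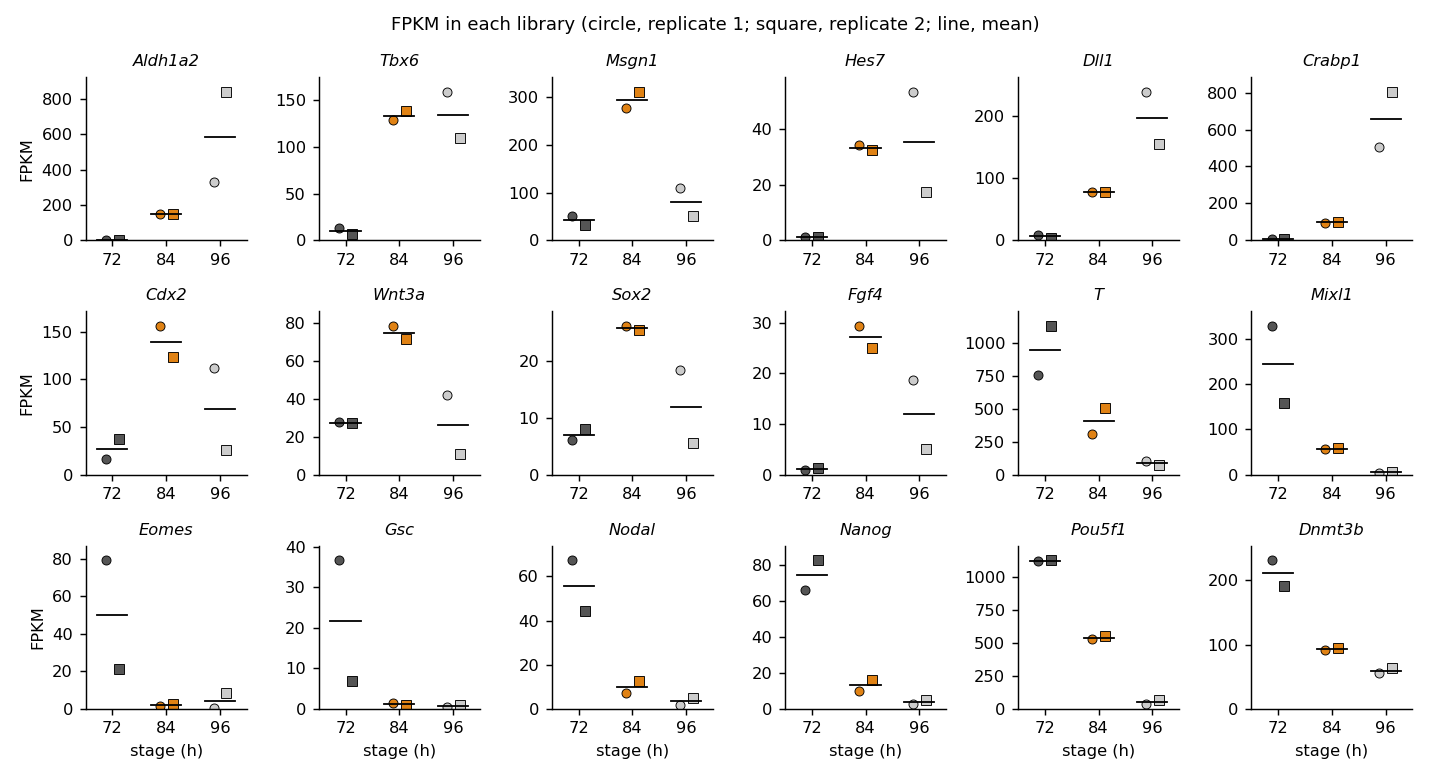
FPKM in each library at 72 h (dark grey), 84 h (orange) and 96 h (light grey) for 18 genes; circles are replicate 1, squares replicate 2 and lines the mean of 2 libraries. Genes of the top row rose from 72 h to 84 h, whereas T, Mixl1, Eomes, Gsc, Nodal, Nanog and Dnmt3b fell, and the replicates at 96 h stood apart in many genes.

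To show the sequences beside these changes, the promoters of the presomitic genes called in either direction were searched on both strands for the TCF/LEF motif ATCAAAG, bound by the effectors of Wnt signalling, and the CDX motif TTTATNG. The windows ran from 250 bases before to 50 bases after the gene start (RefSeq, GRCm38.p6), and 12 of the 16 called members searched had a promoter in the table. Each match is printed below 5′ to 3′ on the strand of the gene, with the motif, or its reverse complement where it lies on the opposite strand, in capitals. Mesp1, which was called lower, holds one of the TCF/LEF matches. In Tbx6 and Cited1 the CDX match overlaps the letters TATAAA. Whether these letters act as a TATA box was not tested.
Msgn1, TCF/LEF, chr12:11209133-11209162, minus strand: agatgctaattATCAAAGaggggaaagtga
Mesp1, TCF/LEF, chr7:79793603-79793632, minus strand: gctcgagccggCTTTGATatgctgatgaat
Tbx6, CDX, chr7:126781428-126781457, plus strand: tgtgctgtgagCTATAAAgggggcatccct
Hes7, CDX, chr11:69120219-69120248, plus strand: tattatacagcTTTATGGtccttaaaccag
Cited1, CDX, chrX:102252177-102252206, minus strand: ccagcccgccgCTATAAAatgttcccggcg

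The share with each motif is given per promoter over all promoters, and per gene for the genes tested and called. The first share is therefore a different measure from the others. The TCF/LEF motif stood in 3.73% of all 32851 promoters, in 2.9% of the tested genes with a promoter, in 2.74% of those called higher and in 2.88% of those called lower. The CDX motif stood in 10.9% of all promoters, in 7.64% of the tested genes, in 8.68% of those called higher and in 6.0% of those called lower. A match is a description of the letters in this window and does not show a binding site.

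Hox genes of the anterior and central groups came up across all 4 clusters. Of 27 such genes, 19 were tested and all 19 tested were called higher, but 14 of them passed the filter through 84 h alone and could not have been lower. Over the full list of 27, tested or not, both 84 h libraries were above both 72 h libraries in 25 and below both in 1, beside 23.4% above and 21.3% below over the 23837 genes with a value above 0 in any of the 4 libraries. None of the 12 posterior Hox genes (groups 10 to 13) reached 1 FPKM at either stage.

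The genes at the anterior end of the HoxB cluster were already expressed at 72 h. Hoxb1 (chromosome 11, 96365752 to 96368256, plus strand) was at 43.4 and 74.5 FPKM at 72 h and at 218 and 265 FPKM at 84 h, 4.09-fold higher (log2 change 2.08 ± 0.19 SE, limma adjusted p = 1.6e-10). Hoxb2 was at 7.13 and 16.5 FPKM and then at 63.2 and 63.9 FPKM, 5.37-fold higher. Both had their lower 72 h value in replicate 1.

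The remaining HoxB genes were under 1 FPKM in both 72 h libraries. Some of them, such as Hoxb4, were above the detection limit in 72 h replicate 2. Hoxb4 was at 0.117 and 0.749 FPKM at 72 h and at 10.4 and 9.88 FPKM at 84 h. Hoxb5 was listed at 0 and at 0.0325 FPKM and then at 7.05 and 4.86 FPKM. Hoxb8 was at 0.019 and 0.296 FPKM and then at 15.9 and 14.4 FPKM. Hoxb9, at the far end of this series on the chromosome (96271457 to 96276595), was at 0.175 and 0.327 FPKM and then at 21.8 and 15.5 FPKM. The level at 84 h thus did not fall steadily along the cluster, with Hoxb9 above Hoxb4 to Hoxb7 in these per-length units.

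Hoxb3 was listed at 0 in both 72 h libraries and was at 14.5 and 11.6 FPKM at 84 h (log2 change 7.03 ± 0.26 SE, limma adjusted p = 4.85e-21). Its span overlaps an antisense transcript, Hoxb3os, that was listed at 2.37 FPKM in 72 h replicate 2 and at 0 in the other 3 libraries.

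The HoxD and HoxC genes tested stayed under 4 FPKM. Hoxd3 was listed at 0 and 0.0864 FPKM at 72 h and at 3.22 and 3.03 FPKM at 84 h. Hoxd4 was listed at 0 and 0.0424 FPKM and then at 3.45 and 2.47 FPKM. Hoxd1 reached 1.40 and 1.57 FPKM from 0.167 and 0.332 FPKM. Hoxd9, a central gene of the cluster, went from 0.0239 and 0.0856 to 1.84 and 1.92 FPKM, above Hoxd1 in both 84 h libraries. At 96 h Hoxd3, Hoxd4 and Hoxd1 were at 22.9 and 19.7, at 23.2 and 14.7 and at 10 and 9.64 FPKM. Hoxd9 was then at 2.01 and 0.87 FPKM, below Hoxd1 in both 96 h libraries. In HoxC, Hoxc4 and Hoxc5 reached a mean above 1 FPKM, Hoxc4 with 3.90 and 3.87 FPKM, whereas Hoxc8 stayed at 0.783 and 0.391 FPKM.

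In the HoxA cluster, 4 genes were tested and called, with the same order of replicates at 72 h, and 1 of the 4 lost its call without 72 h replicate 1 (adjusted p = 0.202), 84 h replicate 1 (adjusted p = 0.0774) or 84 h replicate 2 (adjusted p = 0.0663). The largest rise among all named genes was Hoxaas3, an antisense transcript across the central HoxA genes, listed at 0 in both 72 h libraries and at 41.6 and 36.0 FPKM at 84 h (limma adjusted p = 7.95e-16). Since it shares its span with several coding genes, some of which are listed at 0 at 84 h, fragments of this stretch may be divided between genes differently in different libraries.

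At 72 h, 18 of the 19 tested Hox genes were higher in replicate 2 than in replicate 1, and Hoxb3 was listed at 0 in both. The number called higher was 18 of 19 without 72 h replicate 1 and 19 without 72 h replicate 2. The log2 change of Hoxb1 was 1.69 without replicate 1 and 2.47 without replicate 2, and that of Hoxb8 was 5.27 and 7.

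**Figure D4:**
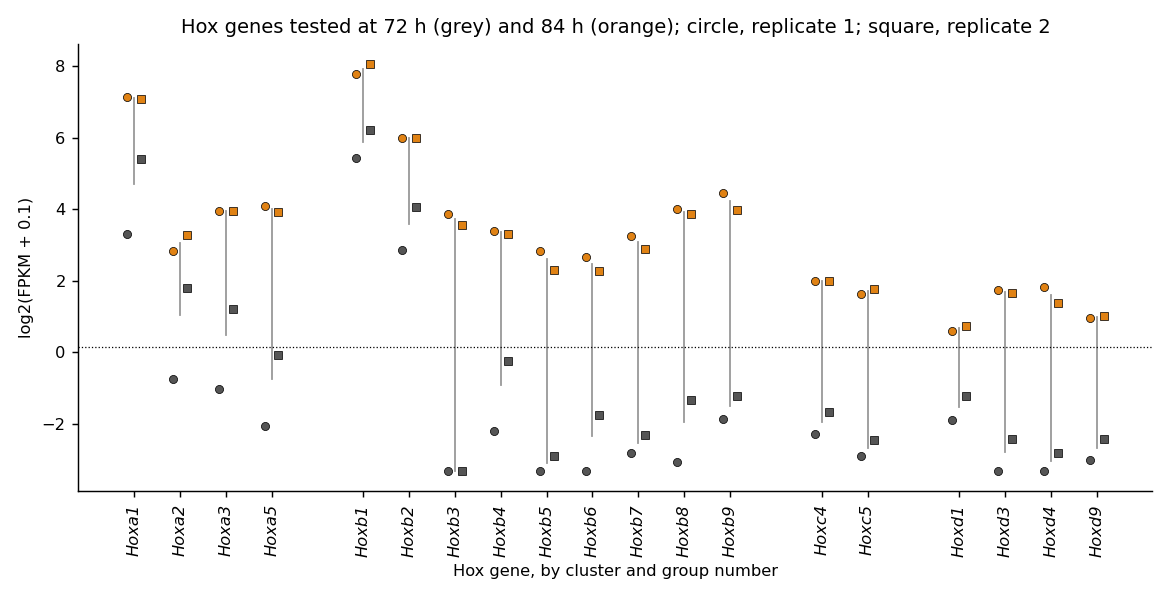
Log2(FPKM + 0.1) of the 19 tested Hox genes in each library at 72 h (grey) and 84 h (orange), by cluster and group number; circles are replicate 1, squares replicate 2, vertical lines join the means of 2 libraries and the dotted line is 1 FPKM. Hoxb1 and Hoxb2 were above 1 FPKM in both 72 h libraries, while Hoxb3 to Hoxb9 were below it.

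Among posterior epiblast and neuromesodermal genes the calls were mostly rises. Of 20 genes, 18 were tested, 10 were higher and 1, T, was lower, with a median log2 change of 1.18. Without 72 h replicate 1, 5 of these 10 kept their call (Cdx1, Cdx2, Sox2, Wnt3a and Gbx2) and 2 other genes, Cyp26a1 and Sall4, were called higher, whereas 9 of the 10 kept it without 72 h replicate 2. The number called higher was 4 when the variance was taken from the 16 time-course libraries alone. Of the 18 tested, 12 were higher in 72 h replicate 2 than in replicate 1.

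The 3 caudal homeobox genes were among the rises. Cdx2 (chromosome 5, 147300805 to 147307270, minus strand) was at 16.8 and 36.9 FPKM at 72 h and at 156 and 123 FPKM at 84 h, 5.2-fold higher (log2 change 2.47 ± 0.33 SE, limma adjusted p = 5.6e-07). Cdx1 was at 61.9 and 146 FPKM and then at 391.7 and 350 FPKM, 3.57-fold higher. Cdx4 began lower, at 0.393 and 1.03 FPKM, and reached 6.70 and 5.85 FPKM. It passed the filter through 84 h alone and could not have been lower. Hes3, a Hes family repressor gene, was at 0.471 and 1.62 FPKM and then at 6.99 and 5.44 FPKM, 5.95-fold higher, a call lost without 72 h replicate 1 (adjusted p = 0.0685). At 96 h Cdx4 stood at 46.8 FPKM in replicate 1 and at 0.954 FPKM in replicate 2, so that the order of the 84 h and 96 h levels differed between those libraries. The call of Cdx4 was lost without 72 h replicate 1 (adjusted p = 0.0676).

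Genes of the neural and progenitor side of the list rose with them. Sox2, shared by pluripotent cells and neural progenitors, was at 6.12 and 8 FPKM at 72 h and at 26.2 and 25.6 FPKM at 84 h, 3.67-fold higher (limma adjusted p = 0.0019). Nkx1-2, a marker of the caudal lateral epiblast, was at 95.3 and 191 FPKM and then at 308 and 300 FPKM. Its call (limma adjusted p = 0.0293) was lost without 72 h replicate 1 (adjusted p = 0.369) or either 84 h library (adjusted p = 0.123 and 0.0977). Gbx2 rose 3.7-fold to 114 and 120 FPKM. Fgf8, Sp5, Sp8, Evx1 and Cyp26a1 of the same list were not called, and Cyp26a1, which degrades retinoic acid, was at 20.0 and 3.53 FPKM at 72 h and at 10.1 and 9.39 FPKM at 84 h. Its log2 change was 1.43 without 72 h replicate 1 (adjusted p = 0.000818) and -1.03 without 72 h replicate 2 (adjusted p = 0.016).

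T, or Brachyury, the T-box factor of the streak and the posterior progenitors (chromosome 17, 8434423 to 8442496, plus strand), fell while most of the list rose. It was at 758 and 1126 FPKM at 72 h and at 306 and 503 FPKM at 84 h, 2.33-fold lower (log2 change -1.24 ± 0.27 SE, limma adjusted p = 0.000839). The stages did not overlap, and at 96 h T was at 107 and 70.4 FPKM. With 84 h replicate 1 left out the adjusted p was 0.0645.

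Among primitive streak genes the calls were mostly falls. All 18 genes of the list were tested, 9 were lower, 8 were not called and 1, Snai1, was higher, with a median log2 change of -1.36 beside 0.00393 over all genes. The number called lower was 4 without 72 h replicate 1, 10 without 72 h replicate 2, 4 without 84 h replicate 1 and 7 without 84 h replicate 2. In 17 of the 18 genes 72 h replicate 1 was the higher of the 72 h libraries.

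Eomes, a T-box factor of endoderm and cardiac mesoderm (chromosome 9, 118478212 to 118486132, plus strand), was at 79.2 and 21.3 FPKM at 72 h and at 1.74 and 2.76 FPKM at 84 h. Its mean was 22.3-fold lower (log2 change -4.16 ± 0.84 SE, limma adjusted p = 0.000309), and the log2 change was -3.22 without 72 h replicate 1 and -5.11 without 72 h replicate 2. Gsc, the organizer homeobox gene (chromosome 12, 104471209 to 104473330, minus strand), was at 36.7 and 6.76 FPKM and then at 1.43 and 0.867 FPKM, 18.9-fold lower in the means (log2 change -3.71 ± 0.60 SE, limma adjusted p = 1.26e-05). The 72 h libraries differed several-fold in both genes, yet each stood above both 84 h libraries.

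Nodal signalling components were among the falls. Nodal, the TGF-β ligand that patterns the streak, was at 67.3 and 44.4 FPKM at 72 h and at 7.18 and 12.6 FPKM at 84 h, 5.64-fold lower (limma adjusted p = 0.00787). Its coreceptor Tdgf1 was at 167 and 50.1 FPKM and then at 9.54 and 15.6 FPKM, 8.66-fold lower, and this call was lost without 72 h replicate 1 (adjusted p = 0.234) or 84 h replicate 1 (adjusted p = 0.145). The call of Nodal was lost without the same libraries (adjusted p = 0.0797 and 0.106). Over the 12 Nodal pathway genes tested, 2 were lower and 3 (Acvr1b, Acvr2b and Furin, which encode receptors and a protease that processes the ligand) were higher by at most 1.62-fold. The call of Acvr1b was lost when any 1 of the 4 libraries was left out (adjusted p = 0.0694 to 0.118), and that of Acvr2b without 72 h replicate 2 or 84 h replicate 1 (adjusted p = 0.592 and 0.501). The median log2 change of this list was -0.14.

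Mixl1, a homeobox gene of mesendoderm (chromosome 1, 180693043 to 180697034, minus strand), went from 329 and 160 to 56.7 and 58.3 FPKM, 4.25-fold lower. Its call was lost without 72 h replicate 1 (adjusted p = 0.0517). Gata6, a factor of endoderm and cardiac mesoderm, fell from 9.66 and 1.77 to 0.604 and 0.705 FPKM, a call lost without 72 h replicate 1 (adjusted p = 0.332) or either 84 h library (adjusted p = 0.0858 and 0.052). Lhx1 and Frzb showed how far the 72 h libraries decide a direction. Lhx1 was at 50.9 and 6.65 FPKM at 72 h and at 12.2 and 12.9 FPKM at 84 h, between the earlier values, and was not called, with a log2 change of 0.90 without 72 h replicate 1 and of -2.01 without 72 h replicate 2 (adjusted p = 0.13 and 0.000434). Frzb, a secreted Wnt antagonist, was at 25.6 and 4.52 FPKM and then at 19.9 and 17.7 FPKM. Without 72 h replicate 1 its log2 change was 2.03 (adjusted p = 1.57e-08), and without 72 h replicate 2 it was -0.45.

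Among pluripotency genes the calls went in both directions. In the list of naive pluripotency genes, 12 of 18 were tested, 1 (Nanog) was lower and 1 (Fgf4) was higher, with a median log2 change of -0.19. Nanog (chromosome 6, 122707489 to 122714633, plus strand) was at 65.8 and 82.5 FPKM at 72 h and at 9.87 and 16.1 FPKM at 84 h, 5.71-fold lower (limma adjusted p = 0.0126). Its call was lost without 72 h replicate 2 (adjusted p = 0.0805) or 84 h replicate 1 (adjusted p = 0.121). Fgf4, an FGF ligand made by the epiblast and the streak, went the other way, from 0.999 and 1.27 to 29.3 and 25.1 FPKM, 23.9-fold higher (log2 change 4.47 ± 0.40 SE, limma adjusted p = 7.19e-11). Esrrb, Zfp42 and Klf4 were at or under 3.44 FPKM in all 4 libraries. Tdh was at 16.8 and 25.7 FPKM at 72 h and at 5.36 and 6.52 FPKM at 84 h and was not called (limma adjusted p = 0.169). It was called when the variance was taken from the 16 time-course libraries (adjusted p = 0.00138). Of the 12 tested, 3 had both 84 h libraries below both 72 h libraries and 3 had both above.

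Of the 12 genes shared by naive and primed pluripotent cells, 2 were lower and 1, Sox2, was higher. Both 84 h libraries were below both 72 h libraries in 6 of the 12 and above both in 3. Pou5f1, the gene of Oct4, was at 1124 and 1129 FPKM at 72 h and at 532 and 552 FPKM at 84 h. Its libraries did not overlap and its mean was 2.08-fold lower, but it was not called (log2 change -1.06 ± 0.62 SE, limma adjusted p = 0.235), and it was called when the variance was taken from the 16 time-course libraries (adjusted p = 0.0184). L1td1, which encodes an RNA-binding protein, fell from 151 and 130 to 17.1 and 25.2 FPKM, 6.66-fold (limma adjusted p = 0.00895), a call lost without replicate 1 of 72 h (adjusted p = 0.0586) or of 84 h (adjusted p = 0.0878).

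Genes of the postimplantation epiblast were lower in 6 and higher in 2 of the 17 tested, with a median log2 change of -0.97. Fgf5 was at 66.0 and 24.6 FPKM at 72 h and at 3.84 and 3.65 FPKM at 84 h, 12.1-fold lower. Otx2, the anterior homeobox gene, was at 26.9 and 6.88 FPKM and then at 1.26 and 2.13 FPKM, 9.96-fold lower. The call of Otx2 (limma adjusted p = 0.00509) was lost without 72 h replicate 1 (adjusted p = 0.148) or 84 h replicate 1 (adjusted p = 0.0702). Dnmt3b, the de novo DNA methyltransferase of the epiblast, had replicates close together, at 231 and 192 and then at 91.5 and 94.9 FPKM, 2.27-fold lower (log2 change -1.18 ± 0.08 SE, limma adjusted p = 2.22e-14). Dnmt3a rose 1.27-fold over the same interval, and Tet2 and Tet3, which oxidize methylated cytosine, rose 1.64-fold and 1.54-fold, whereas Dnmt1 was not called. The call of Tet2 was lost without any 1 of the 4 libraries (adjusted p = 0.0782 to 0.163), that of Tet3 without 84 h replicate 1 (adjusted p = 0.104) and that of Dnmt3a without replicate 1 of either stage (adjusted p = 0.0944 and 0.108).

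Most Wnt ligands tested rose, while Wnt3 fell. Of 11 tested, 8 were higher and 2 were lower, with a median log2 change of 1.45, and 4 of the 11 reached 1 FPKM at 84 h alone. Wnt3, the ligand that initiates the streak, was at 23.0 and 14.5 FPKM at 72 h and at 3.25 and 3.89 FPKM at 84 h, 5.25-fold lower. Wnt3a, the ligand of the posterior progenitors, was at 27.6 and 27.0 FPKM and then at 78.1 and 71.4 FPKM, 2.73-fold higher (limma adjusted p = 0.00344). Wnt5a, a ligand of axis elongation, went from 4.81 and 3.27 to 22.8 and 20.9 FPKM, 5.4-fold, and Wnt8a went from 49.8 and 99.8 to 158 and 163 FPKM, a call lost without 72 h replicate 1 (adjusted p = 0.207). With the variance from the 16 time-course libraries, 3 were called higher and 2 lower.

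Targets and feedback genes of the pathway were called in both directions. Of 20 tested, 8 were higher, 2 were lower (T and Znrf3) and 10 were not called, with a median log2 change of 0.35, and the genes called higher include Cdx1, Cdx2 and Cdx4 of the list above. Axin2, the most used readout of the pathway, was at 63.4 and 67.3 FPKM at 72 h and at 61.8 and 61.5 FPKM at 84 h (log2 change -0.08 ± 0.13 SE, limma adjusted p = 0.723). Lef1, a DNA-binding effector of the pathway, was at 50.2 and 64.8 FPKM and then at 94.2 and 102.4 FPKM, 1.71-fold higher, while its relative Tcf7 was at 85.1 and 92.7 and then at 69.0 and 78.5 FPKM and was not called. Without 72 h replicate 1, 4 members were called higher and 2 lower, and Znrf3, which encodes a ligase that removes Wnt receptors, was not called without 84 h replicate 2 (adjusted p = 0.0535).

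FGF ligands moved in both directions. Of 17 ligands and feedback genes of the ERK pathway tested, 9 were higher and 1, Fgf5, was lower, with a median log2 change of 0.74. Without 72 h replicate 2 or 84 h replicate 1, 5 of these 9 kept their call. The ligands called higher were Fgf3, Fgf4, Fgf15 and Fgf17, and the call of Fgf17 was lost when any 1 of the 4 libraries was left out (adjusted p = 0.0694 to 0.0752). Fgf8 (log2 change -0.03) and Fgf10 (log2 change 0.84) were not called. Fgf3 went from 3.86 and 0.606 to 26.2 and 24.2 FPKM and Fgf15 from 3.5 and 1.68 to 34.4 and 29.8 FPKM, 11.3-fold and 12.4-fold. Among the feedback genes, Spry4 rose 2.1-fold (a call lost without 72 h replicate 2, adjusted p = 0.0955, or 84 h replicate 1, adjusted p = 0.0678) and Spry2 1.6-fold, whereas Dusp6 was at 117 and 89.8 and then at 87.0 and 87.4 FPKM and was not called. With the variance from the 16 time-course libraries, 5 of the 17 were called higher and 2 lower.

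Most genes of retinoic acid metabolism and binding that were tested rose. Of 10 tested, 7 were higher and 0 lower, with a median log2 change of 2.05, but Aldh1a2 and Dhrs3 passed the filter through 84 h alone and could not have been lower. Aldh1a2 is shared with the presomitic list. Crabp1 and Crabp2 encode the cytosolic binding proteins of retinoic acid. Crabp1 was at 8.46 and 7.05 FPKM at 72 h and at 95.9 and 100 FPKM at 84 h, 12.6-fold higher, and Crabp2 was at 31.2 and 64.6 and then at 269 and 320 FPKM, 6.15-fold higher. Stra6, the receptor that takes up retinol, went from 0.613 and 1.53 to 8.04 and 6.53 FPKM, and Dhrs3, which turns retinal back to retinol, from 0.160 and 0.286 to 2.77 and 2.83 FPKM. The receptor gene Rara rose 1.44-fold.

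In the BMP pathway 11 genes were tested, 1 was higher and 1 lower. Id1, a direct target, went from 9.27 and 3.61 to 19.7 and 18.8 FPKM, and Chrd, the antagonist chordin, from 5.24 and 2.71 to 1.80 and 1.74 FPKM. The call of Chrd was lost without 72 h replicate 1 (adjusted p = 0.245).

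Most mesenchymal genes tested rose, while most epithelial junction genes were not called. Of 11 mesenchymal genes tested, 8 were higher and 0 lower, with a median log2 change of 1.02, and 2 of the 11 reached 1 FPKM at 84 h alone. Vim, the intermediate filament of mesenchyme, went from 69.0 and 59.2 to 146 and 133 FPKM, Cdh2 (N-cadherin) from 48.0 and 25.8 to 68.5 and 74.8 FPKM and Zeb1, a repressor of epithelial genes, from 1.03 and 0.956 to 3.37 and 3.27 FPKM. Fn1, fibronectin, went from 121 and 44.7 to 190 and 206 FPKM, 2.39-fold, with a log2 change of 2.15 without 72 h replicate 1 and 0.71 without 72 h replicate 2, and its estimate in 84 h replicate 2 is marked as failed in the file and the listed value was used. Snai1, another such repressor, was at 31.1 and 11.6 FPKM and then at 38.3 and 38.1 FPKM, and its call (limma adjusted p = 0.0169) was lost without 72 h replicate 2 (adjusted p = 0.611) or either 84 h library (adjusted p = 0.0839 and 0.0708). Among 15 epithelial genes 1 (Cldn6) was lower, a call lost without 72 h replicate 2 (adjusted p = 0.0826) or 84 h replicate 1 (adjusted p = 0.0919). Cdh1, E-cadherin, was at 157 and 200 FPKM at 72 h and at 124 and 137 FPKM at 84 h (log2 change -0.44 ± 0.44 SE, limma adjusted p = 0.531). The median of this list was -0.42. Both 84 h libraries were below both 72 h libraries in 10 of the 15 epithelial genes and above both in 3. Over all genes tested these shares were 29.8% and 30.0%.

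Eph receptors and ephrins, which sort cells at tissue boundaries, were called in 11 of the 16 members tested, 9 higher and 2 lower. Over all genes tested, 13.8% were higher and 8.98% lower. Efna1 went from 4.07 and 2.83 to 33.5 and 31.6 FPKM, 9.44-fold, and Epha4 from 4.04 and 4.81 to 20.5 and 20.8 FPKM, 4.66-fold. Epha2 fell from 98.0 and 89.2 to 49.8 and 50.4 FPKM. Both calls lower, that of Epha2 included, were lost when any 1 of the 4 libraries was left out.

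In the cell cycle, glycolysis, cholesterol synthesis and p53 target lists, the share called in either direction was below that of all genes. Over all genes tested, 22.8% were called, 13.8% higher and 8.98% lower. Of 24 cell cycle and replication genes, 4 were higher (Ccnd1, Ccnd2, Ccnd3 and Cdc20) and 0 lower, a share near the 13.8% of all genes tested, with a median log2 change of 0.04. All 3 D-type cyclins of the list were among them, Ccnd2 with 28.7 and 42.1 FPKM at 72 h and 100 and 84.6 FPKM at 84 h. The calls of Ccnd1 and Cdc20 were lost without 84 h replicate 1 (adjusted p = 0.0969 and 0.12), that of Ccnd1 also without 72 h replicate 1 (adjusted p = 0.0608) and that of Cdc20 also without 72 h replicate 2 (adjusted p = 0.188). Of 17 glycolysis genes tested, 2 were higher, both of them glucose transporters. Slc2a1 went from 101 and 130 to 494 and 439 FPKM, 4.04-fold (log2 change 2.02 ± 0.20 SE, limma adjusted p = 4.12e-10), and Slc2a3 from 39.1 and 51.5 to 131 and 114 FPKM. None of the enzymes tested was called, and Ldha was at 1784 and 1560 FPKM at 72 h and at 1770 and 1829 FPKM at 84 h. Both 84 h libraries were below both 72 h libraries in 12 of 20 cholesterol synthesis genes (median log2 change -0.18) and above both in 1. These counts were 7 and 11 of 24 cell cycle genes, 1 and 8 of 17 glycolysis genes and 3 and 8 of 15 p53 target genes. Over all genes tested the shares were 29.8% below and 30.0% above. In 20 cholesterol synthesis genes 1 was higher and 1 lower, and in 15 p53 target genes 3 were higher (Bbc3, Phlda3 and Eda2r), of which Bbc3 and Phlda3 were not called without 72 h replicate 2 (adjusted p = 0.0699 and 0.06), nor Phlda3 without 84 h replicate 1 (adjusted p = 0.12).

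**Figure D5:**
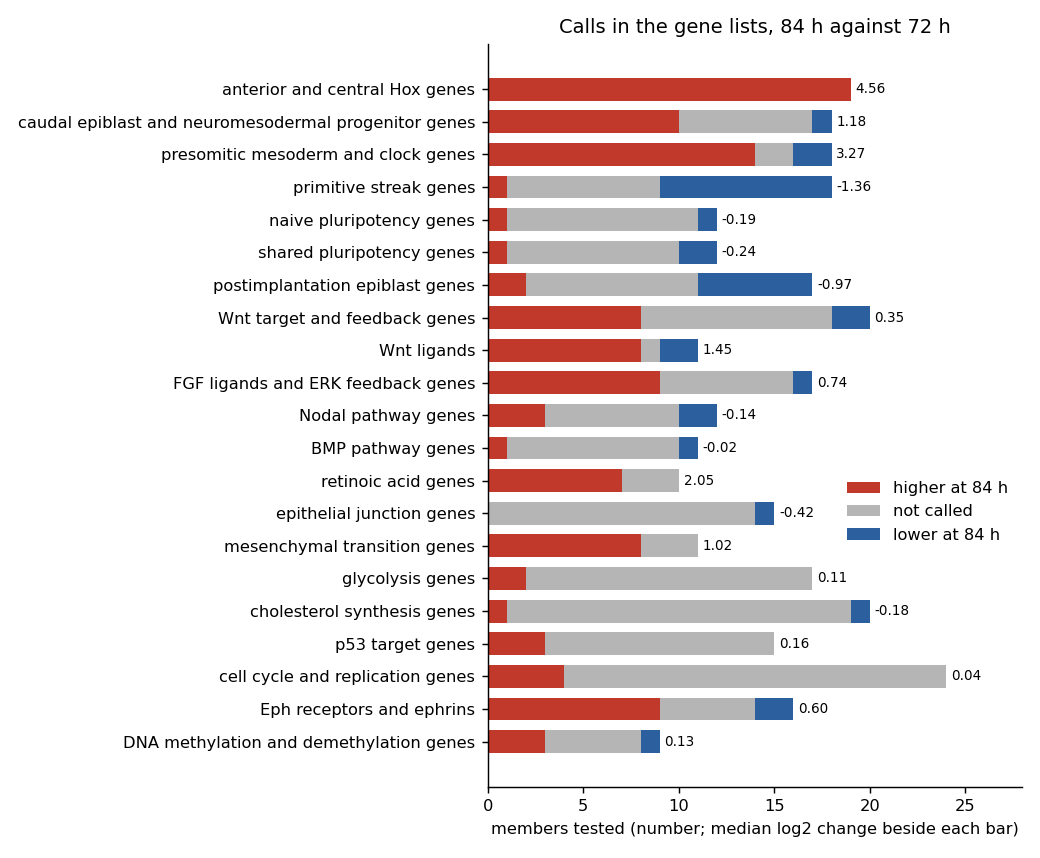
Number of tested members of each list called higher (red), not called (grey) or called lower (blue) at 84 h, with the median log2 change of the tested members beside each bar. Hox, presomitic, retinoic acid and mesenchymal lists hold mostly rises, and the primitive streak (9) and postimplantation (6) lists hold more falls than any other list shown.

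Beyond the lists, Arg1 showed one of the largest rises. It encodes arginase, which splits arginine in the urea cycle, lies on chromosome 10 (24915221 to 24927484, minus strand) and overlaps no other gene. Arg1 was at 0.288 and 1.12 FPKM at 72 h and at 78.6 and 86.0 FPKM at 84 h, 117-fold higher in the means (log2 change 6.90 ± 0.32 SE, limma adjusted p = 1.79e-18). With a 72 h mean of 0.703 FPKM, it passed the filter through 84 h alone and could not have been lower. At 96 h it was at 92.4 and 87.2 FPKM, close to the 84 h values. Egr1, an immediate early gene, showed one of the largest falls that involved no value of 0, from 30.9 and 24.2 to 2.22 and 1.91 FPKM (limma adjusted p = 5.98e-06). At 96 h Egr1 was at 10.6 and 48.4 FPKM.

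Among called genes the largest rise in mean FPKM was that of Mdk, the heparin-binding growth factor midkine. It was at 416 and 636 FPKM at 72 h and at 1203 and 1377 FPKM at 84 h, 2.45-fold higher. Ifitm1, an interferon-inducible membrane protein gene of nascent mesoderm, went from 113 and 108 to 555 and 539 FPKM, 4.94-fold. Grsf1, which encodes an RNA-binding protein, and Tmsb10, which encodes an actin-binding thymosin, rose 2.11-fold and 1.76-fold, and the call of Tmsb10 was lost without 84 h replicate 2 (adjusted p = 0.127). The remaining genes of this ranking, Slc2a1, Cdx1, Msgn1 and Crabp2, are described above.

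Among called genes the largest falls in mean FPKM were those of Hsp90ab1, T, Pim2, Mixl1, Hsp90aa1, Eif4a1, Pcbp2 and Mkrn1. Hsp90ab1, a chaperone gene, was at 3963 and 4134 FPKM at 72 h and at 3336 and 3559 FPKM at 84 h, 1.17-fold lower (limma adjusted p = 0.0294). Pim2, which encodes a kinase active in pluripotent cells, was at 294 and 334 FPKM and then at 94.9 and 104 FPKM, 3.15-fold lower. Of these 8 genes, Hsp90ab1, Eif4a1 and Pcbp2 changed by at most 1.21-fold, and each lost its call without 72 h replicate 1 (adjusted p = 0.0604, 0.0714 and 0.222) and without 84 h replicate 1 (adjusted p = 0.221, 0.336 and 0.0604). Mkrn1 lost its call without 72 h replicate 2 (adjusted p = 0.18) or either 84 h library (adjusted p = 0.087 and 0.106).

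Several of the largest log2 changes rest on values of 0. Of the 83 tested genes that were listed at 0 in both libraries of 1 stage and had a mean of at least 5 FPKM at the other, 57 overlap another gene, a share to be set beside 49.0% of all genes tested, and 26 were called. Pip4p1 was at 45.3 and 44.7 FPKM at 72 h and is listed at 0 in both libraries at 84 h and at 96 h. It overlaps Apex1, which was at 240 and 233 FPKM and then at 341 and 322 FPKM. Galk2 is listed at 0 at 72 h, was at 18.1 and 19.0 FPKM at 84 h and is listed at 0 again at 96 h, and it overlaps Cops2, which was at 121 and 124 and then at 99.9 and 95.4 FPKM. Rad9a, Map3k15, Malsu1, Fabp3 and the small nucleolar RNA genes Snora64 and Snord15b are likewise listed at 0 in both 84 h libraries, and Mindy1, Pdzk1, Smarcd3 and Usp40 in both 72 h libraries. Prpf39 was called lower through a value of 0 in 84 h replicate 2, without which its log2 change was -0.20 (adjusted p = 0.942). The calls of Rad9a, Malsu1 and Snord15b were lost when any 1 of the 4 libraries was left out (adjusted p = 0.0539 to 0.0664, 0.114 to 0.128 and 0.119 to 0.175). How far the division of fragments between overlapping genes sets these values was not tested. Without the genes listed at 0 in any of the 4 libraries, 1606 genes were higher and 1057 lower.

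Markers of other cell types ranged from near 0 to summed levels above 100 FPKM. None of the 12 anterior neural genes in the table reached 1 FPKM at either stage, and their summed level was between 0.763 and 2.09 FPKM per library. Of 9 markers of 2-cell-like cells, 5 were at 0 in all 4 libraries and 0 reached 1 FPKM. The 12 somite markers summed to 2.54 and 2.55 FPKM at 72 h and to 157 and 158 FPKM at 84 h, of which Aldh1a2 alone made 152. Endothelium and blood markers summed to 17.0 and 16.6 FPKM and then to 45.9 and 44.5 FPKM, most of it from Lmo2, which rose from 11.5 and 12.7 to 42.7 and 39.3 FPKM (limma adjusted p = 0.000231), while 11 of the 14 markers stayed under 1 FPKM in all 4 libraries.

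Endoderm markers summed to 128 and 114 FPKM at 72 h and to 154 and 181 FPKM at 84 h. Of the 10 tested, 1 (Gata6) was lower and 0 were higher, and Sox17 was at 4.30 and 0.638 FPKM and then at 1.77 and 1.91 FPKM. Foxa2 went from 19.2 and 8.24 to 3.55 and 3.84 FPKM and was not called (limma adjusted p = 0.0667). Both 84 h libraries were below both 72 h libraries in 2 of the 10, Gata6 and Foxa2, and above both in 3. Other members therefore carried the rise of the sum. The 12 trophoblast markers summed to 99.8 and 62.2 FPKM and then to 164 and 133 FPKM, but the 3 tested, Eomes, Cdx2 and Tfap2c, stand in other lists too, and 9 of the 12 stayed under 1 FPKM in all 4 libraries. Among primordial germ cell markers, 4 were tested, Tfap2c was higher (1.84 and 1.79, then 4.58 and 5.43 FPKM) and Ddx4 was lower, both calls being lost without any 1 of the 4 libraries (adjusted p = 0.086 to 0.144 and 0.0624 to 0.151). The cardiac and lateral mesoderm markers summed to at most 14.5 FPKM in any library, and 1 of the 5 tested, Smarcd3, was called. Of 14 spinal cord markers, 11 stayed under 1 FPKM and none of the 3 tested was called. In these bulk libraries, fewer cells of a type and less RNA per cell cannot be told apart.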

How the data were processed

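The authors prepared stranded poly-A RNA-seq libraries, sequenced paired ends, trimmed them with cutadapt 1.16, aligned them to mm10 with STAR 2.7.7a, kept uniquely mapped reads and ran Cufflinks 2.2.1 on an annotation derived from Ensembl. Deposited tables hold the authors' FPKM per gene, unchanged. Lines of the 25 repeated identifiers were summed. Failed estimates were used as listed. Groups and replicate numbers came from sample titles. Gene lists, members and tests were chosen with earlier results of these data known.

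Log2(FPKM + 0.1) of all 61 libraries in 28 conditions was fitted with limma 3.58.1 (R 4.3.3, 33 residual degrees of freedom, no trend, no robust option) over the 17098 genes whose mean reached 1 FPKM in any condition. The contrast 84 h minus 72 h was adjusted by Benjamini-Hochberg over the 12098 genes with a mean of at least 1 at either stage, and all p-values are two-sided. The fit shares 1 variance per gene over all conditions, so a gene that varies between replicates elsewhere is harder to call. Simulated data, with 11943 genes tested, had normal noise with 1 spread per gene, equal in all conditions, as the fit assumes. In them 100 genes were changed by 1 and 100 by 2 (log2), all with a 72 h mean of at least 1 (log2). The procedure recovered 87% of changes of 1 and 97% of changes of 2, and 8% of its 200 calls were unchanged genes. Replicates that differ in whole lists, as at 72 h, were not simulated, so the rates for the real libraries were not tested. A fold is a ratio of mean FPKM, given only where the lower mean was at least 0.5, and the log2 change is on the log2(FPKM + 0.1) scale, which understates changes of low genes.

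Genes named outside the lists were the 12 largest log2 rises and falls among called genes whose libraries did not overlap and whose higher mean was at least 5 FPKM, and the 8 largest rises and falls in mean FPKM among called genes, leaving out predicted genes, Riken clones, microRNAs and most antisense names. Members of lists were named up to about 6 per list by size of change, with uncalled members where needed. Of the rises so ranked, Hoxaas3 and the genes listed at 0 are described together. Gene positions are those of the authors' table (mm10). Depth was inferred from the steps of 1 fragment in low FPKM values (tolerance 0.02). Motifs were counted once per gene over its RefSeq promoters, except in the share of all promoters, where each promoter counted. Alternatives covered pseudocount, filter, scaling, the libraries in the fit, moderation, a replicate block and leaving out each library. Python 3.11.15 and matplotlib 3.10.9 were used for tables and plots.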

Additional observations from a re-analysis of the deposited data

How the results depend on the processing

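Across the settings tried, the number of genes higher at 84 h ran from 482 to 2215 and the number lower from 198 to 1452, against 1674 and 1087. The counts fell by more than 1.5 times with only the 4 compared libraries in the fit (482 higher, 198 lower), after rescaling to a common total without mitochondrial genes (1114 higher, 485 lower) and with a required log2 change of at least 1 (582 and 198). Leaving out 1 library gave 1098 to 1355 higher and 601 to 728 lower, the lowest of both without 84 h replicate 1, and the falls also dropped by more than 1.5 times without 72 h replicate 2 (715) and without 84 h replicate 2 (683). Adjusting without a filter on level gave 2215 higher and 1241 lower over 23837 genes, pseudocounts of 1 and 0.01 gave 1702 and 1632 higher with 1284 and 1009 lower, and the 16 time-course libraries gave 1254 and 958. The cause of these differences was not tested beyond the fewer libraries of some settings. The setting without genes listed at 0 was chosen after seeing the data.

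With the replicate block the counts were 1716 higher and 1122 lower. The labels number the replicates but do not say that a number marks a shared culture, the deviations of same-numbered libraries at 72 h and 84 h correlated at 0.113 across genes, and with 2 pairs the numbers were not taken to pair the samples.

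Of 140 named genes tested, 55 lost their call with only the 4 libraries in the fit, 24 with the 16 time-course libraries and 18 to 31 with 1 library left out. No called gene changed sign. Among genes not called, the sign turned for Sox17 (-0.05) with a pseudocount of 1 and for Sp8 (-0.01) and Klf4 (-0.01) with the mitochondrial rescaling. With 1 library left out it turned for Fgf8 (-0.67 to 0.61), Fgf10 (-0.08 to 1.76), Sp8 (-0.17 to 0.18), Lhx1 (-2.01 to 0.90), Cyp26a1 (-1.03 to 1.43), Sp5 (-0.15 to 0.80), Frzb (-0.45 to 2.03), Klf4 (-0.18 to 0.19), Sox17 (-1.18 to 1.39), Zfp42 (-0.89 to 0.03) and Tcf15 (-0.01 to 1.2). With 2 libraries per stage and a limit near 0.08 FPKM, changes of genes under about 1 FPKM were not resolved.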
